A study of Mus musculus with 22 samples.

Results

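The mammary epithelial and milk genes described here are 32 named genes, all of which were found in a deposited table of 37620 entries, each as a single entry. They were taken as listed, by gene symbol. They comprise 9 luminal keratin and adhesion genes (Krt8, Krt18, Krt19, Krt7, Epcam, Cdh1, Cldn3, Cldn4, Cldn7), 2 basal keratin genes (Krt5, Krt14), 6 milk protein genes (Csn1s1, Csn1s2a, Csn2, Csn3, Wap, Lalba), 5 regulators (Elf5, Elf3, Ehf, Esrp1, Cited1), 5 secreted proteins (Wfdc2, Ltf, Trf, Lcn2, Areg) and 5 surface proteins (Spint2, Muc1, Ano1, Erbb3, Prom1). They were followed through 22 RNA libraries of 11 lymphocyte populations sorted from mammary tumours, 2 libraries per population.

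All cells came from pooled mammary tumours of female PyMT mice on the C57BL/6 strain, 20 to 24 weeks old. PyMT mice carry the polyoma middle T oncogene as a transgene and develop mammary tumours; the labels do not name the promoter that drives it. There was no untreated, tumour-free or second genotype group, so every population shared the tumour setting. The first set held TCR-NK1.1+, TCRb+CD8a-NK1.1+, TCRb+CD8a+NK1.1+, TCRb+CD8a+PD1+ and TCRb+CD8a+PD1-NK1.1- cells, and the second held ILC1l (spelled ILC1I in 1 title), cNK, TCRgd+ILTC1, TCRab+ILTC1, TCRgd+NK1.1- and TCRb+CD8a+NK1.1- cells. The labels do not say that the libraries of a population came from separate animals, so p-values measure only the spread between these libraries, which may be technical.

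The luminal cells of the mammary gland line its ducts and alveoli and carry the keratins 8, 18 and 19, E-cadherin (Cdh1), EpCAM and the claudins of tight junctions, while basal cells carry keratins 5 and 14. The caseins, whey acidic protein and lactalbumin are made by luminal cells of pregnancy and lactation, and PyMT tumours arise from mammary epithelium. Some genes of the list are also used by cells of the immune system: E-cadherin is a ligand of the inhibitory receptor KLRG1 and of the integrin CD103, and lipocalin 2 and lactoferrin are stored in neutrophil granules.

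Library totals ran from 8696335 to 20602715 counts with 12866 to 21446 entries detected, and 3 counts in a library stood for 0.146 to 0.345 CPM (a gene's share of its library, per 1000000 counts). CPM levels were scaled by the trimmed mean of M values (TMM) over all 22 libraries. The sorting markers mostly followed the labels: Klrb1c, which encodes NK1.1, lay at 924 CPM or above in every library of an NK1.1+, ILC1l, cNK or ILTC1 population and between 0.842 and 82.1 CPM in the libraries of NK1.1- or PD1+ gates. Cd3e, a T cell receptor subunit gene, was at 0.618 and 6.09 CPM in cNK, but at 216 and 437 CPM in TCR-NK1.1+ and 85.8 and 458 CPM in ILC1l. Trdc was not matched in the table. The macrophage list summed to 3690 and 9119 CPM in TCRgd+NK1.1- and to between 12.7 and 455.5 CPM in all other libraries.

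The promoters of members that were high in the same libraries can be read beside their levels. The 250 bases before the RefSeq start (GRCm38.p6) were searched for the E-box CACCTG or its reverse complement CAGGTG, the 2 readings of 1 site on the 2 strands; zinc-finger repressors of epithelial genes are known to bind this site. Of the 32 members 25 had a window, 31 windows in all, some of them overlapping, and 18 of these (58.1%) held the letters, beside 17.2% of all 32851 promoter windows of that length; a match is a description and no site was measured. The 4 below were chosen because the first pair, the keratin partners Krt8 and Krt18, set the scale for every library, and the second pair, Epcam and Spint2, departed from that scale. They lie at chr15:102004343-102004592 (minus strand), chr15:102027966-102028215 (plus), chr17:87635729-87635978 (plus) and chr7:29281978-29282227 (minus), each 5′ to 3′ with the matches in capitals.
Krt8: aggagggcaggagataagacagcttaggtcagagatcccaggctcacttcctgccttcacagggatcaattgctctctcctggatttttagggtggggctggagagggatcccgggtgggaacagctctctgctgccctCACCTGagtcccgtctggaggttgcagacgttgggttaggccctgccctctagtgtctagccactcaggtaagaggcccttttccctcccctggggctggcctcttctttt
Krt18: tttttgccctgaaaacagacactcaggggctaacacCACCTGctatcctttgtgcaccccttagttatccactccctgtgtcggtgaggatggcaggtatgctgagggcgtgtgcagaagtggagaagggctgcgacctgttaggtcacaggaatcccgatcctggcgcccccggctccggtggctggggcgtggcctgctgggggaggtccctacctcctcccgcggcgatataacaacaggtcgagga
Epcam: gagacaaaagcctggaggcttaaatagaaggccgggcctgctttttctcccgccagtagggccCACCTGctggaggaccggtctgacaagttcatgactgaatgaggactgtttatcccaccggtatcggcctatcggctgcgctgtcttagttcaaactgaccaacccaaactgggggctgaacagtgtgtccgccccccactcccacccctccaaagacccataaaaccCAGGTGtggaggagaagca
Spint2: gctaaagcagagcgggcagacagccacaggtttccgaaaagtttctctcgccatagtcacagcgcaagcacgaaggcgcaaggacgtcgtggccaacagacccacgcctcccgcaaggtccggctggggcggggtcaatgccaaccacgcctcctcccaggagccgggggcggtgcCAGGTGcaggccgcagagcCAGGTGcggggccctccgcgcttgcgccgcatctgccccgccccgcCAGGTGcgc
The keratin windows held 1 match each, the Epcam window 2 and the Spint2 window 3.

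Luminal keratin RNA differed between the populations by orders of magnitude. Keratins 8 and 18 pair into the intermediate filaments of simple epithelium, and their counts were summed as the reference for each library. In the first set the sum of Krt8 and Krt18 was 1095 and 812.7 CPM in TCR-NK1.1+, 872.5 and 135.5 in TCRb+CD8a-NK1.1+, 6.43 and 7.75 in TCRb+CD8a+NK1.1+, 7.57 and 7.67 in TCRb+CD8a+PD1+, and 4.43 and 7.15 in TCRb+CD8a+PD1-NK1.1- (replicates 1 and 2). In the second set it was 979.7 and 722.5 CPM in TCRgd+NK1.1-, 475.7 and 1044 in TCRb+CD8a+NK1.1-, 24.8 and 31.1 in cNK, 6.80 and 2.64 in ILC1l, 15.4 and 0.0751 in TCRgd+ILTC1, and 9.52 and 5.59 in TCRab+ILTC1. Thus TCR-NK1.1+, TCRb+CD8a-NK1.1+, TCRgd+NK1.1- and TCRb+CD8a+NK1.1- lay above the other 7 populations in both libraries, and TCRb+CD8a-NK1.1+ replicate 2 lay far below its partner. Here and below, levels set side by side across the 2 sets were not tested. Across sets, a difference between sets cannot be told apart from one between populations. TCRb+CD8a+NK1.1- of the second set, for example, lay far above TCRb+CD8a+PD1+ and TCRb+CD8a+PD1-NK1.1- of the first. The lowest value, in TCRgd+ILTC1 replicate 2, rested on 1 count. In bulk RNA, fewer cells of a type and less RNA per cell cannot be told apart. Krt8 was at 372 and 272 CPM in TCR-NK1.1+, 266 and 51.5 in TCRb+CD8a-NK1.1+, 2.35 and 2.53 in TCRb+CD8a+NK1.1+, 2.35 and 2.15 in TCRb+CD8a+PD1+, and 1.15 and 1.48 in TCRb+CD8a+PD1-NK1.1-. Krt8 in the second set was at 1.83 and 2.64 CPM in ILC1l, 7.34 and 8.29 in cNK, 3.68 and 0.0751 in TCRgd+ILTC1, 3.61 and 0.894 in TCRab+ILTC1, 359 and 272 in TCRgd+NK1.1-, and 156 and 329.6 in TCRb+CD8a+NK1.1-. Each library of those 4 populations thus lay above every other library for Krt8 alone. Krt18 was at 722 and 541 CPM in TCR-NK1.1+, 606 and 84.0 in TCRb+CD8a-NK1.1+, 4.08 and 5.23 in TCRb+CD8a+NK1.1+, 5.23 and 5.52 in TCRb+CD8a+PD1+, and 3.28 and 5.67 in TCRb+CD8a+PD1-NK1.1-. Krt18 in the second set was at 4.97 and 0 CPM in ILC1l, 17.5 and 22.8 in cNK, 11.7 and 0 in TCRgd+ILTC1, 5.91 and 4.69 in TCRab+ILTC1, 621 and 450.3 in TCRgd+NK1.1-, and 319.5 and 714 in TCRb+CD8a+NK1.1-. The same held for Krt18, which had no count in ILC1l replicate 2 and TCRgd+ILTC1 replicate 2.

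**Figure D1:**
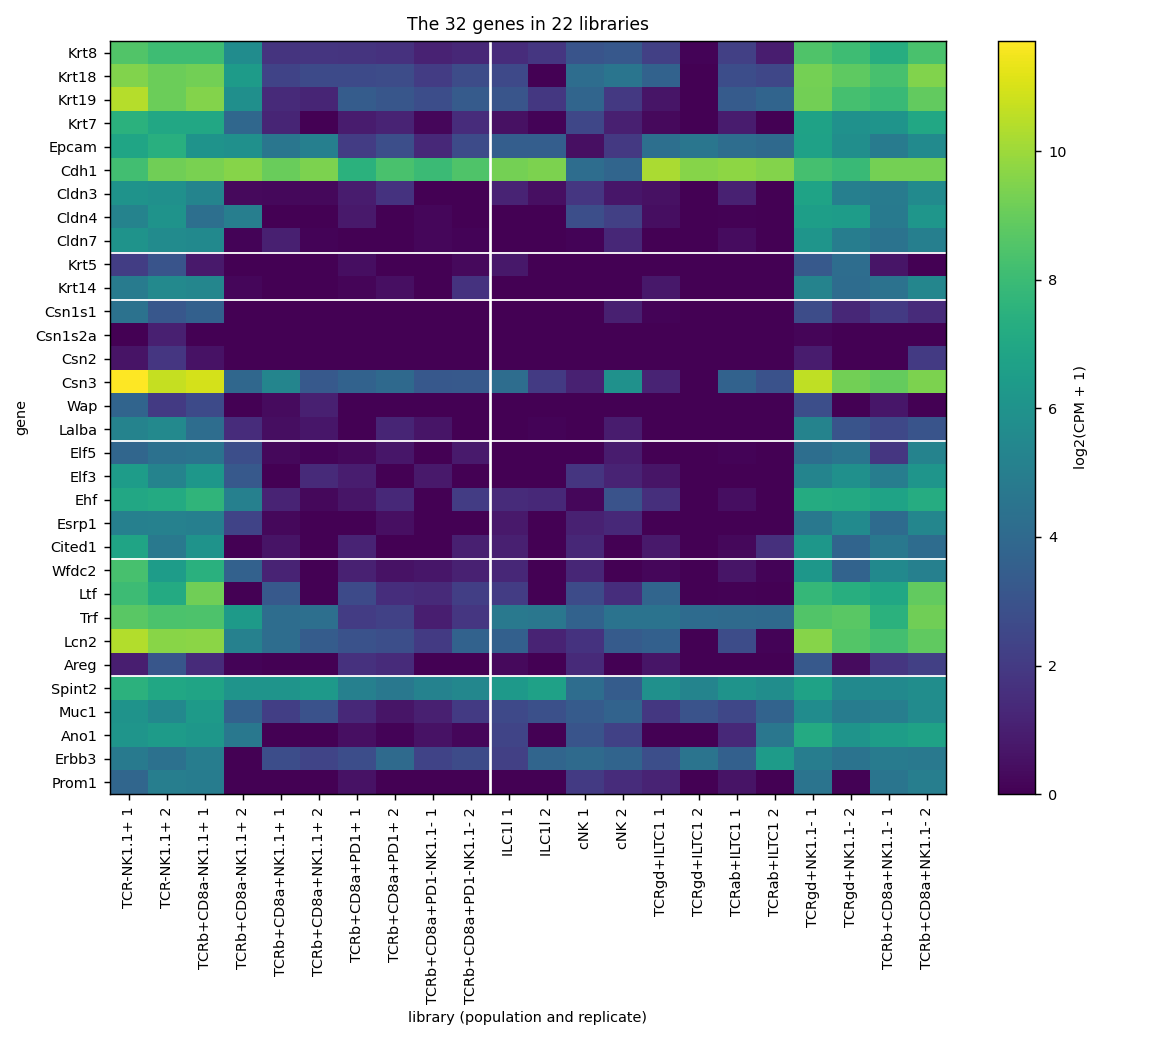
Level of each of the 32 genes (rows, in the order of their classes, white lines between classes) in each of the 22 libraries (columns, population and replicate; the vertical line parts the 2 sets), as log2(CPM + 1). Most rows are bright in the same 7 libraries, Cdh1 is bright in all but the cNK libraries, and 25 of 32 genes are at 0 in TCRgd+ILTC1 replicate 2.

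Krt19 is a luminal keratin and Krt7 a keratin of ducts. Krt19 was at 1381 and 546 CPM in TCR-NK1.1+, 742 and 56.4 in TCRb+CD8a-NK1.1+, 1.65 and 1.31 in TCRb+CD8a+NK1.1+, 9.65 and 7.67 in TCRb+CD8a+PD1+, and 5.74 and 9.16 in TCRb+CD8a+PD1-NK1.1-. Krt19 in the second set was at 7.57 and 2.72 CPM in ILC1l, 13.2 and 2.82 in cNK, 0.588 and 0 in TCRgd+ILTC1, 9.37 and 12.7 in TCRab+ILTC1, 589.7 and 307 in TCRgd+NK1.1-, and 247 and 482 in TCRb+CD8a+NK1.1-. It was thus high in the 4 populations with high Krt8 and Krt18 and ran from 0 to 13.2 CPM in the other 7. Krt7 was at 181 and 129.7 CPM in TCR-NK1.1+, 128 and 13.9 in TCRb+CD8a-NK1.1+, 1.30 and 0 in TCRb+CD8a+NK1.1+, 0.871 and 1.22 in TCRb+CD8a+PD1+, and 0.164 and 1.79 in TCRb+CD8a+PD1-NK1.1-. Krt7 in the second set was at 0.459 and 0.0800 CPM in ILC1l, 4.71 and 1.06 in cNK, 0.221 and 0 in TCRgd+ILTC1, 0.830 and 0 in TCRab+ILTC1, 108 and 60.1 in TCRgd+NK1.1-, and 66.4 and 128 in TCRb+CD8a+NK1.1-. Its libraries split the same way.

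The claudins are strand proteins of tight junctions. Cldn3 reached 109 CPM in TCRgd+NK1.1- replicate 1 and was at 0 in 4 libraries. Cldn4 was at 36.5 and 63.9 CPM in TCR-NK1.1+, 18.4 and 31.3 in TCRb+CD8a-NK1.1+, 0 and 0 in TCRb+CD8a+NK1.1+, 0.737 and 0 in TCRb+CD8a+PD1+, and 0.164 and 0 in TCRb+CD8a+PD1-NK1.1-. Cldn4 in the second set was at 0 and 0 CPM in ILC1l, 5.95 and 3.62 in cNK, 0.368 and 0 in TCRgd+ILTC1, 0.0488 and 0 in TCRab+ILTC1, 94.6 and 88.7 in TCRgd+NK1.1-, and 27.4 and 70.0 in TCRb+CD8a+NK1.1-. Cldn4 was thus at 0 in both libraries of TCRb+CD8a+NK1.1+ and of ILC1l but not in cNK. Cldn7 was at 64.9 and 48.6 CPM in TCR-NK1.1+, 46.2 and 0.0721 in TCRb+CD8a-NK1.1+, 1.04 and 0.0871 in TCRb+CD8a+NK1.1+, 0 and 0 in TCRb+CD8a+PD1+, and 0.164 and 0.0777 in TCRb+CD8a+PD1-NK1.1-. Cldn7 in the second set was at 0 and 0 CPM in ILC1l, 0.0773 and 1.499 in cNK, 0 and 0 in TCRgd+ILTC1, 0.293 and 0 in TCRab+ILTC1, 68.6 and 30.0 in TCRgd+NK1.1-, and 21.3 and 32.3 in TCRb+CD8a+NK1.1-. In TCRb+CD8a-NK1.1+ the Cldn7 libraries lay far apart, while those of Cldn4 did not.

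The basal keratins were low. Krt14 reached 44.6 CPM in TCR-NK1.1+ replicate 2 and was at 0 in 10 libraries. Krt5 reached 17.2 CPM in TCRgd+NK1.1- replicate 2 and was at 0 in 13 libraries.

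Among the milk proteins, kappa-casein (Csn3), which stabilises the casein micelle, was the abundant transcript. It was at 3368 and 1674 CPM in TCR-NK1.1+, 1969 and 13.9 in TCRb+CD8a-NK1.1+, 39.6 and 8.80 in TCRb+CD8a+NK1.1+, 12 and 14.96 in TCRb+CD8a+PD1+, and 8.45 and 8.62 in TCRb+CD8a+PD1-NK1.1-. In the second set it was at 1540 and 602.9 CPM in TCRgd+NK1.1-, 498.8 and 686 in TCRb+CD8a+NK1.1-, 17.1 and 3.04 in ILC1l, 1.08 and 59.4 in cNK, 1.25 and 0 in TCRgd+ILTC1, and 11.7 and 6.78 in TCRab+ILTC1. The 2 libraries of TCRb+CD8a-NK1.1+ and those of cNK lay far apart for this gene. Per kilobase of exon, counting every base in any annotated exon of the gene, Csn3 stood at 811 and 403 CPM in TCR-NK1.1+. On that scale Lalba, the lactose synthase subunit, stood at 47.7 and 58.2, whey acidic protein (Wap) at 12.7 and 2.99, and the alpha casein Csn1s1 at 3.24 and 1.30. The order of the last 2 depends on those lengths, 1008 bases for Wap and 6247 for Csn1s1. Unscaled, Csn1s1 lay above Wap there, at 20.3 and 8.14 CPM. Beta-casein (Csn2) was above 0 in only 5 libraries, at 0.529 and 2.60 CPM in TCR-NK1.1+, 0.472 in TCRb+CD8a-NK1.1+ replicate 1, 0.833 in TCRgd+NK1.1- replicate 1 and 2.93 in TCRb+CD8a+NK1.1- replicate 2. Most libraries thus held no Csn2 count. Wap was at 12.8 and 3.02 CPM in TCR-NK1.1+, 5.13 and 0 in TCRb+CD8a-NK1.1+, 0.261 and 1.04 in TCRb+CD8a+NK1.1+, 6.04 and 0 in TCRgd+NK1.1-, and 0.660 and 0 in TCRb+CD8a+NK1.1-, and at 0 in every other library. Replicate 2 was thus without a Wap count in 3 of the 4 keratin-rich populations. Csn1s2a was at 0 in 20 libraries.

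The epithelial regulators stood in the same libraries as the keratins. Ehf and Elf3 are ETS factors of epithelia. Ehf was at 129.6 and 140.3 CPM in TCR-NK1.1+, 205 and 33.3 in TCRb+CD8a-NK1.1+, 1.22 and 0.174 in TCRb+CD8a+NK1.1+, 0.603 and 1.59 in TCRb+CD8a+PD1+, and 0 and 3.26 in TCRb+CD8a+PD1-NK1.1-. Ehf in the second set was at 1.68 and 1.52 CPM in ILC1l, 0.155 and 6.88 in cNK, 1.99 and 0 in TCRgd+ILTC1, 0.342 and 0 in TCRab+ILTC1, 148 and 137 in TCRgd+NK1.1-, and 111 and 152 in TCRb+CD8a+NK1.1-. Ehf was thus above 30 CPM in every library of the 4 keratin-rich populations and below 10 CPM in all others. Elf3 was at 88.5 and 36.7 CPM in TCR-NK1.1+, 73.0 and 8.58 in TCRb+CD8a-NK1.1+, 0 and 1.66 in TCRb+CD8a+NK1.1+, 0.938 and 0 in TCRb+CD8a+PD1+, and 0.738 and 0 in TCRb+CD8a+PD1-NK1.1-. Elf3 in the second set was at 0 and 0 CPM in ILC1l, 2.55 and 1.24 in cNK, 0.588 and 0 in TCRgd+ILTC1, 0 and 0 in TCRab+ILTC1, 38.1 and 58.3 in TCRgd+NK1.1-, and 30.5 and 67.2 in TCRb+CD8a+NK1.1-. Elf3 was at 0 in both libraries of ILC1l and of TCRab+ILTC1. Esrp1 is an epithelial splicing regulator. Esrp1 was at 32.9 and 34.6 CPM in TCR-NK1.1+, 31.96 and 4.11 in TCRb+CD8a-NK1.1+, 0.174 and 0 in TCRb+CD8a+NK1.1+, 0 and 0.374 in TCRb+CD8a+PD1+, and 0 and 0 in TCRb+CD8a+PD1-NK1.1-. Esrp1 in the second set was at 0.764 and 0 CPM in ILC1l, 1.08 and 1.59 in cNK, 0 and 0 in TCRgd+ILTC1, 0 and 0 in TCRab+ILTC1, 25.1 and 48.1 in TCRgd+NK1.1-, and 16.4 and 40.2 in TCRb+CD8a+NK1.1-. It was at 0 in both libraries of each ILTC1 population. Cited1, a transcriptional cofactor of luminal cells, reached 112 CPM in TCR-NK1.1+ replicate 1. Elf5, the ETS factor of the alveolar lineage, reached 36.2 CPM in TCRb+CD8a+NK1.1- replicate 2. Both ILC1l libraries and TCRgd+ILTC1 replicate 2 were at 0 for Elf3 and Elf5.

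Among the secreted proteins, lipocalin 2 (Lcn2) binds iron carriers and Wfdc2 has the fold of a protease inhibitor. Lcn2 was at 1303 and 804 CPM in TCR-NK1.1+, 813 and 34.3 in TCRb+CD8a-NK1.1+, 17.4 and 9.67 in TCRb+CD8a+NK1.1+, 6.84 and 5.99 in TCRb+CD8a+PD1+, and 2.95 and 11.9 in TCRb+CD8a+PD1-NK1.1-. Lcn2 in the second set was at 11.2 and 1.28 CPM in ILC1l, 2.32 and 9.17 in cNK, 11.1 and 0 in TCRgd+ILTC1, 5.66 and 0.0745 in TCRab+ILTC1, 761 and 384 in TCRgd+NK1.1-, and 294 and 462 in TCRb+CD8a+NK1.1-. Lcn2 was above 290 CPM in every keratin-rich library but TCRb+CD8a-NK1.1+ replicate 2. Wfdc2 was at 316 and 89.0 CPM in TCR-NK1.1+, 173 and 11.3 in TCRb+CD8a-NK1.1+, 1.22 and 0 in TCRb+CD8a+NK1.1+, 1.14 and 0.468 in TCRb+CD8a+PD1+, and 0.656 and 1.09 in TCRb+CD8a+PD1-NK1.1-. Wfdc2 in the second set was at 1.45 and 0 CPM in ILC1l, 1.39 and 0 in cNK, 0.147 and 0 in TCRgd+ILTC1, 0.586 and 0.0745 in TCRab+ILTC1, 72.7 and 12.3 in TCRgd+NK1.1-, and 46.5 and 33.7 in TCRb+CD8a+NK1.1-. The levels of Wfdc2 in the 7 other populations stayed below 1.5 CPM. Lactoferrin (Ltf) reached 569.4 CPM in TCRb+CD8a-NK1.1+ replicate 1 and was at 0 in replicate 2 of that population. The neutrophil list summed to 31.8 and 14.5 CPM in TCR-NK1.1+ and to at most 107.5 CPM in any library, and its part in the Lcn2 and Ltf levels was not tested. Areg, a ligand of the EGF receptor, stayed at or below 8.54 CPM.

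Among the surface proteins, Ano1 is a chloride channel. Ano1 was at 69.0 and 86.2 CPM in TCR-NK1.1+, 71.8 and 24.8 in TCRb+CD8a-NK1.1+, 0 and 0 in TCRb+CD8a+NK1.1+, 0.402 and 0.0935 in TCRb+CD8a+PD1+, and 0.492 and 0.155 in TCRb+CD8a+PD1-NK1.1-. Ano1 in the second set was at 4.36 and 0 CPM in ILC1l, 7.19 and 3.88 in cNK, 0 and 0 in TCRgd+ILTC1, 1.56 and 24.3 in TCRab+ILTC1, 144 and 65.8 in TCRgd+NK1.1-, and 91.9 and 107 in TCRb+CD8a+NK1.1-. It was at 0 in both libraries of TCRb+CD8a+NK1.1+ and of TCRgd+ILTC1, and the TCRab+ILTC1 libraries lay far apart. Prom1 reached 31.4 CPM in TCR-NK1.1+ replicate 2 and was at 0 in 10 libraries. The mucin Muc1 ran from 0.561 to 82.3 CPM and was above 0 in all 22 libraries. Erbb3, a receptor of the EGF receptor family, was highest not in a keratin-rich library but in TCRab+ILTC1 replicate 2, at 85.1 CPM, beside 11.2 CPM in replicate 1.

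Cdh1, Epcam, Trf and Spint2 were present at levels that did not follow the keratins in every population. Cdh1 was at 284 and 572 CPM in TCR-NK1.1+, 647 and 766.5 in TCRb+CD8a-NK1.1+, 532.6 and 675.6 in TCRb+CD8a+NK1.1+, 175.5 and 324 in TCRb+CD8a+PD1+, and 249.7 and 362 in TCRb+CD8a+PD1-NK1.1-. In the second set it was at 618 and 667.6 CPM in ILC1l, 17.0 and 13.2 in cNK, 1208 and 768 in TCRgd+ILTC1, 857 and 742 in TCRab+ILTC1, 302 and 246 in TCRgd+NK1.1-, and 615 and 623 in TCRb+CD8a+NK1.1-. Ordered by mean, TCRgd+ILTC1 was first and cNK last; the ranges of neighbours in this order overlapped or lay close together, except that both cNK libraries lay more than 10-fold below every other library. Cdh1 made 73.2% and 79.8% of all member counts in TCRb+CD8a+NK1.1+, 88.7% and 87.8% in TCRgd+ILTC1, but 2.93% and 9.33% in TCR-NK1.1+.

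EpCAM is a homophilic adhesion protein of epithelia. Epcam was at 117 and 167 CPM in TCR-NK1.1+, 64.8 and 57.1 in TCRb+CD8a-NK1.1+, 23.0 and 32.5 in TCRb+CD8a+NK1.1+, 3.22 and 6.08 in TCRb+CD8a+PD1+, and 1.56 and 5.44 in TCRb+CD8a+PD1-NK1.1-. In the second set it was at 10.3 and 10.3 CPM in ILC1l, 0.387 and 2.82 in cNK, 18.3 and 23.3 in TCRgd+ILTC1, 17.2 and 14.8 in TCRab+ILTC1, 102 and 53.6 in TCRgd+NK1.1-, and 28.4 and 47.3 in TCRb+CD8a+NK1.1-. The TCRb+CD8a+NK1.1+ libraries overlapped those of TCRb+CD8a+NK1.1-, which held far more keratin RNA, and lay above both libraries of each other low-keratin population except TCRgd+ILTC1, which they overlapped.

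Transferrin (Trf) carries iron in plasma and milk. It was at 415 and 341 CPM in TCR-NK1.1+, 344.5 and 82.9 in TCRb+CD8a-NK1.1+, 17.0 and 18.2 in TCRb+CD8a+NK1.1+, 3.22 and 3.83 in TCRb+CD8a+PD1+, and 0.984 and 2.56 in TCRb+CD8a+PD1-NK1.1-. In the second set it was at 25.8 and 24.2 CPM in ILC1l, 12.1 and 21.2 in cNK, 21.2 and 16.2 in TCRgd+ILTC1, 15.8 and 15.3 in TCRab+ILTC1, 374 and 420 in TCRgd+NK1.1-, and 176 and 569.5 in TCRb+CD8a+NK1.1-. The keratin-rich populations were highest, and TCRb+CD8a+PD1+ and TCRb+CD8a+PD1-NK1.1- were lowest.

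Spint2, a membrane-bound Kunitz inhibitor of serine proteases, was above 0 in all 22 libraries. It ran from 9.52 CPM in cNK replicate 2 to 182 CPM in TCR-NK1.1+ replicate 1, with a median of 55.1 CPM over the 22 libraries. Spint2 was at 182 and 125 CPM in TCR-NK1.1+, 113 and 66.5 in TCRb+CD8a-NK1.1+, 65.5 and 78.1 in TCRb+CD8a+NK1.1+, 32.9 and 24.8 in TCRb+CD8a+PD1+, and 36.2 and 41.6 in TCRb+CD8a+PD1-NK1.1-. Spint2 in the second set was at 77.6 and 103 CPM in ILC1l, 17.0 and 9.52 in cNK, 57.4 and 37.8 in TCRgd+ILTC1, 64.3 and 52.8 in TCRab+ILTC1, 107 and 45.6 in TCRgd+NK1.1-, and 47.0 and 52.1 in TCRb+CD8a+NK1.1-. The ILC1l libraries overlapped those of TCRb+CD8a-NK1.1+, TCRgd+NK1.1- and, narrowly, TCRb+CD8a+NK1.1+, and lay above both cNK libraries.

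**Figure D2:**
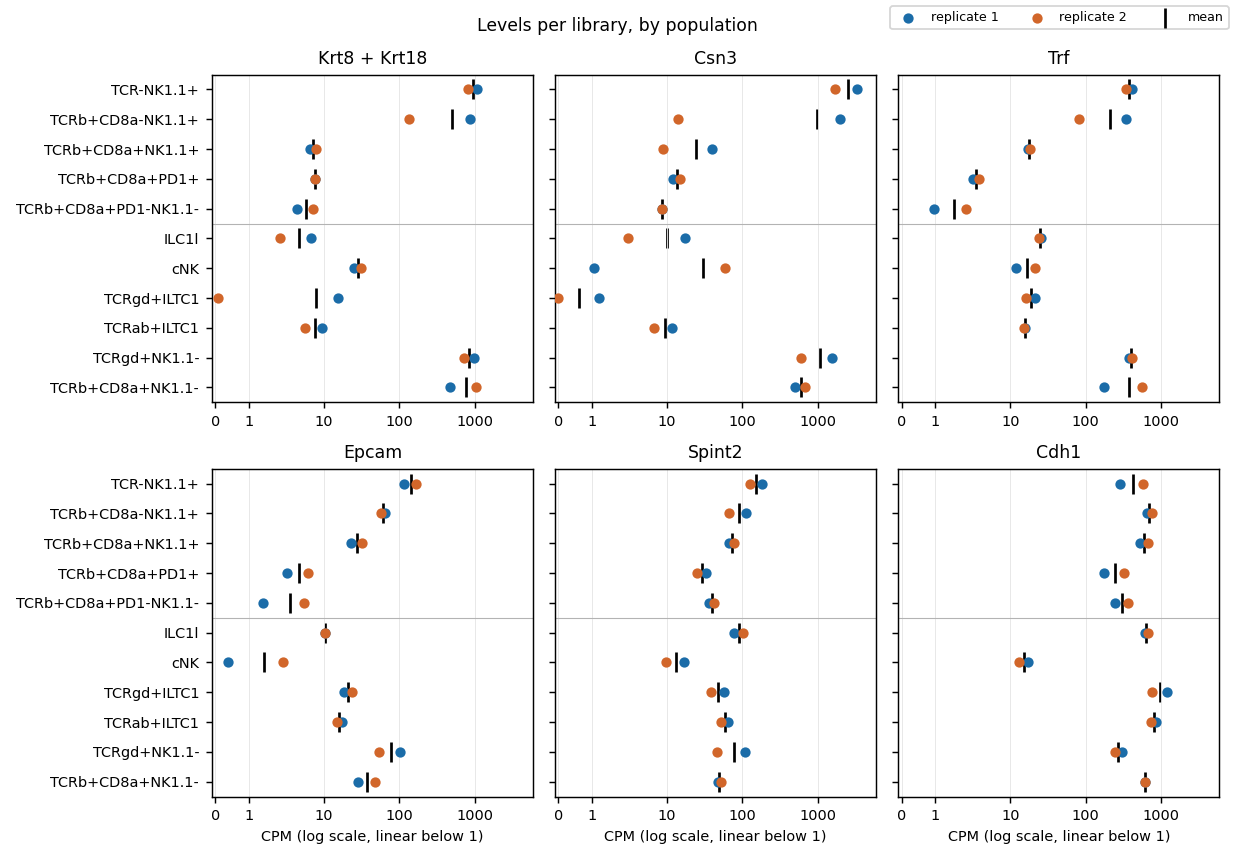
CPM of the keratin sum and of 5 members in each library (points, by replicate) with the population mean (black tick); the grey line parts the first and second sets, and the axis is logarithmic above 1 CPM. The keratin sum, Csn3 and Trf fall steeply outside 4 populations, Epcam and Spint2 less so, and Cdh1 is at 175.5 CPM or above in every library but the 2 of cNK.

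Dividing each gene's count by the summed Krt8 and Krt18 count of the same library put the members on a scale that library size does not touch. The ratio compares a gene with itself between libraries, and its exact 95% interval covers counting error only. For Krt19 the ratio was 1.26 and 0.672 in TCR-NK1.1+, 0.602 and 0.425 in TCRgd+NK1.1-, 1.27 and 1.00 in TCRb+CD8a+PD1+, 1.30 and 1.28 in TCRb+CD8a+PD1-NK1.1-, and 1.11 and 1.03 in ILC1l. It was 0.851 and 0.416 in TCRb+CD8a-NK1.1+, 0.519 and 0.462 in TCRb+CD8a+NK1.1-, 0.985 and 2.28 in TCRab+ILTC1, 0.533 and 0.0907 in cNK, 0.257 and 0.169 in TCRb+CD8a+NK1.1+, and 0.0383 and 0 in TCRgd+ILTC1. The Krt19 ratio thus differed between low-keratin populations, with both TCRb+CD8a+NK1.1+ and both TCRgd+ILTC1 libraries below every keratin-rich library.

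The Epcam ratio was 0.107 and 0.206 in TCR-NK1.1+, 0.0743 and 0.421 in TCRb+CD8a-NK1.1+, 0.104 and 0.0742 in TCRgd+NK1.1-, and 0.0598 and 0.0453 in TCRb+CD8a+NK1.1-. It was 3.58 (2.76 to 4.70) and 4.19 (3.32 to 5.34) in TCRb+CD8a+NK1.1+, 1.52 and 3.91 in ILC1l, 1.81 and 2.65 in TCRab+ILTC1, and 1.19 and 310.0 in TCRgd+ILTC1, the last against 1 keratin count (interval 55.2 to 12280). In TCRb+CD8a+PD1+ it was 0.425 and 0.793, in TCRb+CD8a+PD1-NK1.1- 0.352 and 0.761, and in cNK 0.0156 and 0.0907. Thus every library of TCRb+CD8a+NK1.1+, ILC1l, both ILTC1 populations and TCRb+CD8a+PD1+, the last narrowly in replicate 1, lay above every library of the 4 keratin-rich populations, as did TCRb+CD8a+PD1-NK1.1- replicate 2, while cNK lay within or below their range.

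The Trf ratio was 0.379 and 0.420 in TCR-NK1.1+, 0.395 and 0.612 in TCRb+CD8a-NK1.1+, 0.382 and 0.581 in TCRgd+NK1.1-, and 0.369 and 0.545 in TCRb+CD8a+NK1.1-. It was 2.65 (2.02 to 3.51) and 2.35 (1.82 to 3.04) in TCRb+CD8a+NK1.1+, 3.79 and 9.15 in ILC1l, 1.66 and 2.73 in TCRab+ILTC1, and 1.38 and 215 in TCRgd+ILTC1. It was 0.425 and 0.500 in TCRb+CD8a+PD1+, 0.222 and 0.359 in TCRb+CD8a+PD1-NK1.1-, and 0.486 and 0.680 in cNK. TCRb+CD8a+PD1+ and TCRb+CD8a+PD1-NK1.1- therefore had Trf ratios within or below the range of the keratin-rich populations, and TCRb+CD8a+NK1.1+ lay above it.

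The Cdh1 ratio was 0.260 and 0.704 in TCR-NK1.1+, 0.741 and 5.66 in TCRb+CD8a-NK1.1+, 0.308 and 0.341 in TCRgd+NK1.1-, and 1.29 and 0.597 in TCRb+CD8a+NK1.1-. It was 82.8 and 87.2 in TCRb+CD8a+NK1.1+, 23.2 and 42.3 in TCRb+CD8a+PD1+, 56.4 and 50.6 in TCRb+CD8a+PD1-NK1.1-, 90.9 and 253 in ILC1l, and 90.1 and 133 in TCRab+ILTC1. In cNK it was 0.685 and 0.425, inside the range of the keratin-rich populations. The Spint2 ratio was 0.166 and 0.154 in TCR-NK1.1+, 10.2 and 10.1 in TCRb+CD8a+NK1.1+, 11.4 and 39.1 in ILC1l, and 0.685 and 0.306 in cNK.

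The ratios of Muc1 and Erbb3 were also higher in TCRb+CD8a+NK1.1+, ILC1l and cNK than in TCR-NK1.1+. For cNK this held for Trf and Spint2 as well. The Muc1 ratio was 0.0592 and 0.0531 in TCR-NK1.1+, 0.554 and 0.876 in TCRb+CD8a+NK1.1+, 0.742 and 2.33 in ILC1l, and 0.380 and 0.397 in cNK. The Erbb3 ratio was 0.0245 and 0.0239 in TCR-NK1.1+, 0.892 and 0.562 in TCRb+CD8a+NK1.1+, 0.539 and 4.94 in ILC1l, and 0.623 and 0.405 in cNK. Erbb3 itself was at 4.36 to 5.74 CPM in TCRb+CD8a+NK1.1+, 5.90 to 15.5 in TCRb+CD8a+PD1+ and 4.10 to 5.36 in TCRb+CD8a+PD1-NK1.1-. TCRb+CD8a+NK1.1+ thus did not exceed these low-keratin NK1.1- or PD1+ populations for Erbb3. Muc1 was at 3.56 to 6.79 CPM in TCRb+CD8a+NK1.1+, 0.561 to 1.54 in TCRb+CD8a+PD1+ and 1.07 to 2.95 in TCRb+CD8a+PD1-NK1.1-. Lcn2 also stood above the keratin sum in TCRb+CD8a+NK1.1+, at 17.4 and 9.67 CPM beside 6.43 and 7.75. In TCR-NK1.1+ it was at 1303 and 804 CPM beside 1095 and 812.7, and in ILC1l at 11.2 and 1.28 beside 6.80 and 2.64.

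Markers of another source of Epcam RNA were looked at in the same libraries. Cd207, the langerin gene of Langerhans cells, which carry EpCAM, was at 1.04 and 0 CPM in TCRb+CD8a+NK1.1+, at 0 in both libraries of ILC1l and of TCRgd+ILTC1, and at 3.02 and 3.04 in TCRgd+NK1.1-. Flt3, a dendritic cell receptor gene, was at 0 in both libraries of TCRb+CD8a+NK1.1+, ILC1l and TCRgd+ILTC1. Other genes of the dendritic list were not at 0 there. Of its 7 genes, 4 had counts in each TCRb+CD8a+NK1.1+ library and 3 in each ILC1l library. In TCRgd+ILTC1 replicates 1 and 2, 3 and 4 of them had counts. In TCRab+ILTC1 replicates 1 and 2, 6 and 2 of them had counts, with list sums of 231 and 262 CPM. The whole dendritic list summed to 116 to 169 CPM in TCRb+CD8a+NK1.1+ and 467 to 530 CPM in ILC1l, of which Itgax, which NK cells also express, gave 103 and 153 CPM in the former and 521 and 447 in the latter; its part in the Epcam level was not tested.

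**Figure D3:**
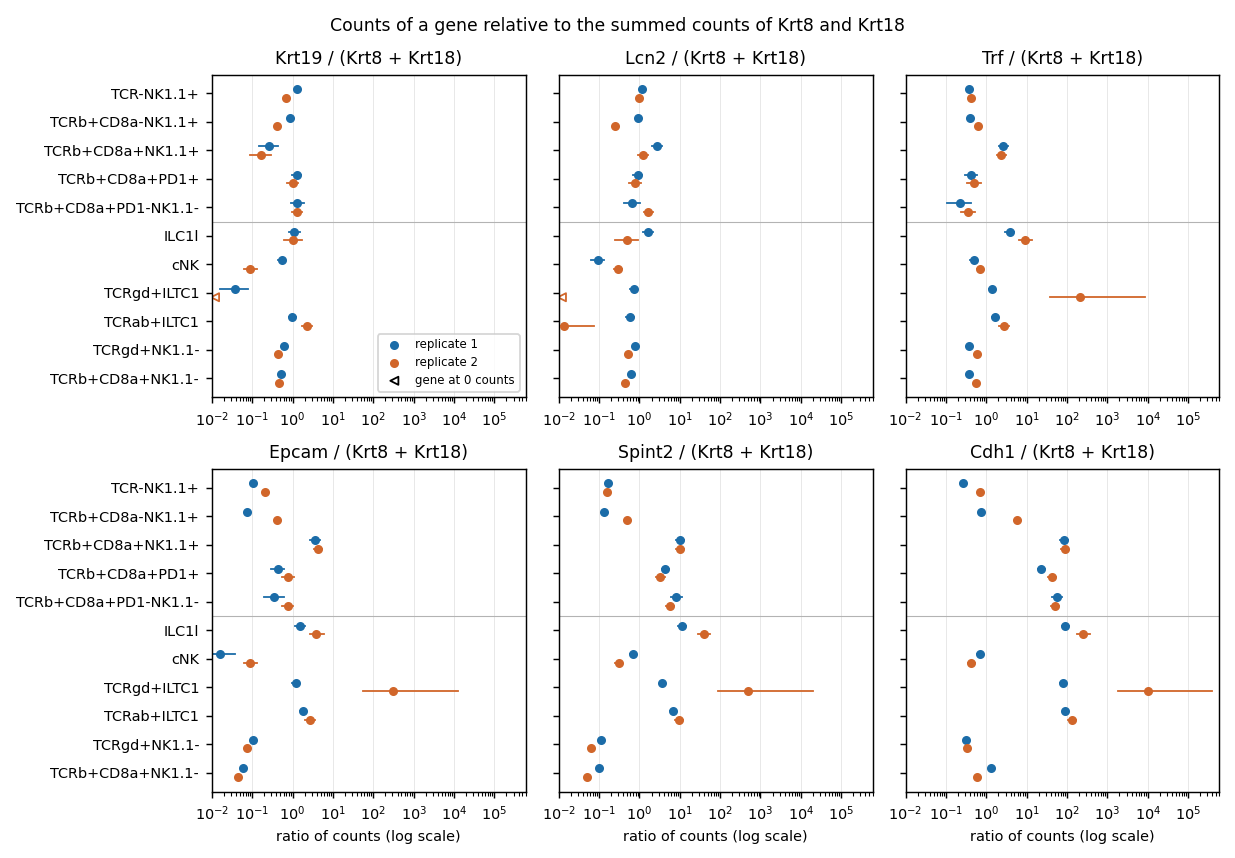
Count of each of 6 members divided by the summed Krt8 and Krt18 count of the same library, on a logarithmic axis, with exact 95% counting intervals (lines) by replicate; open triangles mark libraries where the member had 0 counts, and the grey line parts the sets. Cdh1, Spint2, Epcam and Trf lie to the right of all keratin-rich libraries in TCRb+CD8a+NK1.1+, ILC1l and the ILTC1 populations, Cdh1 and Spint2 do so in TCRb+CD8a+PD1+ and TCRb+CD8a+PD1-NK1.1- as well, and in cNK the Cdh1 ratios are 0.685 and 0.425 and the Spint2 ratios 0.685 and 0.306.

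The tests below used edgeR's quasi-likelihood F test on all genes of a set, with Benjamini-Hochberg adjustment over all genes tested and an adjusted p below 0.05 as the call. In each comparison 30 of the 32 members passed the filter on low counts; Csn1s2a did not pass in either set, nor did Csn2 in the first set and Wap in the second. Differences are log2 values with their SE. Comparisons that share a population share its 2 libraries.

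NK1.1+ CD8a+ T cells held more Epcam RNA than either other CD8a+ population of their set. TCRb+CD8a+NK1.1+ exceeded TCRb+CD8a+PD1+ by 2.60 ± 0.55 (6.05-fold, edgeR adjusted p = 0.0415), with both libraries above. This was the only member called of 30 tested, where 2.11% of all genes were called (1.09% higher, 1.02% lower). An unadjusted edgeR p below 0.05 was found for 9 of the 30 members and for 1722 of all 15727 genes. Trf differed by 2.33 ± 0.63 (edgeR adjusted p = 0.121), Spint2 by 1.32 ± 0.35 (0.115) and Cdh1 by 1.28 ± 0.40 (0.204), each with both libraries above but not called. Others with an unadjusted p below 0.05 went the other way. Krt19 differed by -2.54 ± 1.03 (edgeR adjusted p = 0.380), with both libraries below, and was not called. Cldn4, Areg and Ano1 were at 0 in TCRb+CD8a+NK1.1+, beside means of 0.369, 1.95 and 0.248 CPM in TCRb+CD8a+PD1+, and were not called. From pooled counts, the median log2 difference was -0.26 over the 29 members with more than 3 counts in either population and -0.04 over all tested genes with as many. The Epcam call was lost without any 1 of the 4 libraries (adjusted p 0.106 to 0.303, log2 differences 2.20 to 3.11) and without TMM scaling (adjusted p = 0.0591).

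Against TCRb+CD8a+PD1-NK1.1- cells, Epcam was higher in TCRb+CD8a+NK1.1+ by 2.99 ± 0.56 (7.92-fold, edgeR adjusted p = 0.0314) and Trf by 3.30 ± 0.67 (9.88-fold, 0.0407). These were 2 of 30 members, where 1.78% of all genes were called (0.916% higher, 0.865% lower); none was called lower. Krt8 and the other keratins were not called in either comparison. Here Krt8 differed by 0.89 ± 0.71 and Krt19 by -2.32 ± 1.03. The Epcam call was lost without either TCRb+CD8a+NK1.1+ library or without TCRb+CD8a+PD1-NK1.1- replicate 1 (adjusted p 0.0959 to 0.166), and the Trf call without any 1 of the 4 libraries (0.0877 to 0.297).

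TCR-NK1.1+ cells exceeded TCRb+CD8a+NK1.1+ cells in 11 of 30 members and fell below them in none, where 1.54% of all genes were called (1.27% higher, 0.267% lower). The 11 were the keratins Krt8 (7.04 ± 0.77, edgeR adjusted p = 0.00482), Krt18 (7.08 ± 0.89), Krt19 (9.34 ± 1.26) and Krt7 (7.88 ± 1.46), the claudin Cldn4, the regulators Ehf (7.58 ± 1.49) and Esrp1 (8.45 ± 1.59), the secreted Wfdc2 (8.36 ± 1.58), Lcn2 (6.29 ± 1.30) and Trf (4.43 ± 0.66), and Ano1. Cldn4 and Ano1 had no count in TCRb+CD8a+NK1.1+ and were at least 388-fold and at least 597-fold higher in TCR-NK1.1+, taking 3 counts over the group as the floor. The fitted difference was above 0 for every tested member but Cdh1, yet Epcam (2.35 ± 0.53, adjusted p = 0.0640) and Csn3 (6.71 ± 1.73, 0.103) were not called, and Cdh1 differed by -0.50 ± 0.39 (0.617). The median was 6.66 over all 32 members and 0.05 over all genes. Lists of other cell types moved with these genes: in TCR-NK1.1+ against TCRb+CD8a+NK1.1+ the macrophage list summed to 291.6 to 298 against 12.7 to 18.6 CPM, the B and plasma cell list to 155 to 338 against 1.57 to 2.43, the fibroblast list to 121 to 144 against 1.48 to 6.36, and the erythroid list to 48.2 to 75.6 against 1.48 to 3.04. Ms4a1 of the B cell list and Lum of the fibroblast list were at 0 in both TCRb+CD8a+NK1.1+ libraries, and the part of these lists in the differences was not tested. The count fell to 0 and 1 without replicate 1 or 2 of TCRb+CD8a+NK1.1+, and to 5 and 7 without replicate 1 or 2 of TCR-NK1.1+.

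TCRb+CD8a-NK1.1+ cells exceeded TCRb+CD8a+NK1.1+ cells in 5 of 30 members, where 0.337% of all genes were called (0.331% higher, 0.00636% lower): Krt8 (6.06 ± 0.74, edgeR adjusted p = 0.0120), Krt18 (6.25 ± 0.86), Krt19 (8.11 ± 1.21), Cldn4 (at least 189-fold) and Ano1 (at least 376-fold). Trf (3.64 ± 0.63, adjusted p = 0.0515) and Epcam (1.16 ± 0.51, 0.525) were not called, and Cdh1 differed by 0.25 ± 0.39. In replicates 1 and 2 of TCRb+CD8a-NK1.1+ the macrophage list summed to 159 and 45.3 CPM, the B and plasma cell list to 49.3 and 6.56, the fibroblast list to 86.2 and 1.59, and the erythroid list to 29.1 and 7.65, beside the sums in TCRb+CD8a+NK1.1+ given above. These lists were thus higher in the library with more keratin, and their part in the differences was not tested. Without TCRb+CD8a-NK1.1+ replicate 1 the log2 difference was 4.39 for Krt8, 4.17 for Krt18 and 5.24 for Krt19. Without replicate 2 of that population these differences were 6.80, 7.06 and 8.996. The 5 calls were lost without either TCRb+CD8a+NK1.1+ library.

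ILC1l cells held 43.7-fold more Cdh1 RNA than cNK cells, a log2 difference of 5.45 ± 0.31 (edgeR adjusted p = 0.000165). Spint2 was also higher, by 2.81 ± 0.48 (6.998-fold, 0.0260), and Cldn4, at 0 in both ILC1l libraries, was at least 41.5-fold lower (0.0383). These were 3 of 30 members, where 1.02% of all genes were called (0.606% higher, 0.41% lower). Epcam differed by 2.73 ± 0.76 (adjusted p = 0.175) and Trf by 0.63 ± 0.49 (0.692), neither called, and the median was -1.26 over 28 members and 0.03 over all genes. The Cdh1 call held without each of the 4 libraries in turn, with log2 differences of 5.31 to 5.64; without ILC1l replicate 2, the ILC1l library with more Cd3e, it was 5.40. The B and plasma cell list summed to 6.80 to 6.96 CPM in ILC1l and 449.8 to 644 CPM in cNK, and its part in these differences was not tested. The calls of Spint2 (adjusted p 0.0752 to 0.261) and Cldn4 were lost without any 1 of them.

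TCRab+ILTC1 cells fell below TCRb+CD8a+NK1.1- cells in 4 of 30 members and exceeded them in none, where 0.523% of all genes were called (0.244% higher, 0.279% lower). Krt8 (-6.75 ± 1.16, edgeR adjusted p = 0.0427), Cldn4 (-10.36 ± 1.33) and Trf (-4.62 ± 0.56, 0.0155) were lower, and Elf3, at 0 in TCRab+ILTC1, was at least 539-fold lower. Cdh1 (0.34 ± 0.26, adjusted p = 0.575), Spint2 (0.21 ± 0.45) and Epcam (-1.27 ± 0.70) were not called. Large differences went uncalled too: Krt18 (-6.64 ± 1.75, edgeR adjusted p = 0.132), Krt19 (-5.08 ± 0.94, 0.0547) and Krt7 (-7.76 ± 1.41, 0.0513). An unadjusted edgeR p below 0.05 was found for 22 of the 30 members and for 2327 of all 16828 genes. The median was -5.91 over 31 members and -0.06 over all genes. The fibroblast list summed to 1.03 to 1.42 CPM in TCRab+ILTC1 and 29.5 to 68.0 in TCRb+CD8a+NK1.1-, and the macrophage list to 24.7 to 224 against 304 to 455.5; their part in these differences was not tested. In fits without 1 library the log2 difference ran from -8.16 to -6.08 for Krt8, -12.37 to -9.51 for Cldn4 and -5.24 to -3.50 for Trf. No call held without TCRab+ILTC1 replicate 2. The Krt8 and Elf3 calls were also lost without either TCRb+CD8a+NK1.1- library, and the Cldn4 call without replicate 2 of that population.

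TCRgd+ILTC1 cells had more Cdh1 and less of 9 other members than TCRgd+NK1.1- cells, 10 of 30 tested, where 1.59% of all genes were called (0.671% higher, 0.921% lower). Cdh1 was higher by 1.82 ± 0.26 (3.54-fold, edgeR adjusted p = 0.0157). Krt8 (-7.42 ± 1.20), Krt19 (-10.54 ± 1.26), Krt7 (-9.47 ± 1.60), Cldn4 (-8.92 ± 1.19), Csn3 (-10.74 ± 2.06), Elf3 (-7.35 ± 1.37) and Trf (-4.44 ± 0.55) were lower, as were Cldn7 (at least 402-fold) and Esrp1 (at least 352-fold), both at 0 in TCRgd+ILTC1. Epcam (-1.92 ± 0.71, adjusted p = 0.206) and Spint2 (-0.70 ± 0.45) were not called, nor was Krt18. An unadjusted edgeR p below 0.05 was found for 25 of the 30 members and for 2920 of all 16828 genes. The median was -6.59 over 31 members and -0.09 over all genes. The macrophage sum was 32.4 to 45.2 CPM in TCRgd+ILTC1 and 3690 to 9119 CPM in TCRgd+NK1.1-, the fibroblast sum 2.13 to 6.23 against 85.8 to 702, and the erythroid sum 0 to 0.662 against 109 to 285, and their part in these differences was not tested. The Cdh1 call was lost without TCRgd+ILTC1 replicate 1 (1.39, adjusted p = 0.107) or replicate 2 (2.11, 0.0545), and the number of members called was then 3 and 0.

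The Cdh1 difference between ILTC1 and NK1.1- cells was 1.48 ± 0.36 larger among TCRgd+ than among TCRab+ or TCRb+ cells, which was not called (edgeR adjusted p = 0.266). In this test of the difference 0 of 30 members were called, beside 0.0535% of all genes. The unadjusted p was below 0.05 for 4 members and for 1489 of all 16828 genes. Between TCRab+ILTC1 and ILC1l edgeR called 0 of 30 members, where 0% of all genes were called. The unadjusted p was below 0.05 for 2 members and for 1072 of all 16828 genes. DESeq2 called 0 members, beside 104 genes higher and 144 lower of 25819. Cdh1 differed by 0.31 ± 0.26. Between TCRgd+ILTC1 and TCRab+ILTC1 edgeR called 0 of 30, again with 0% of all genes called. The unadjusted p was below 0.05 for 6 members and for 570 of all 16828 genes. DESeq2 called 2 members, beside 49 genes higher and 27 lower of 25819. Epcam differed by 0.38 ± 0.69 and Cdh1 by 0.30 ± 0.26.

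**Figure D4:**
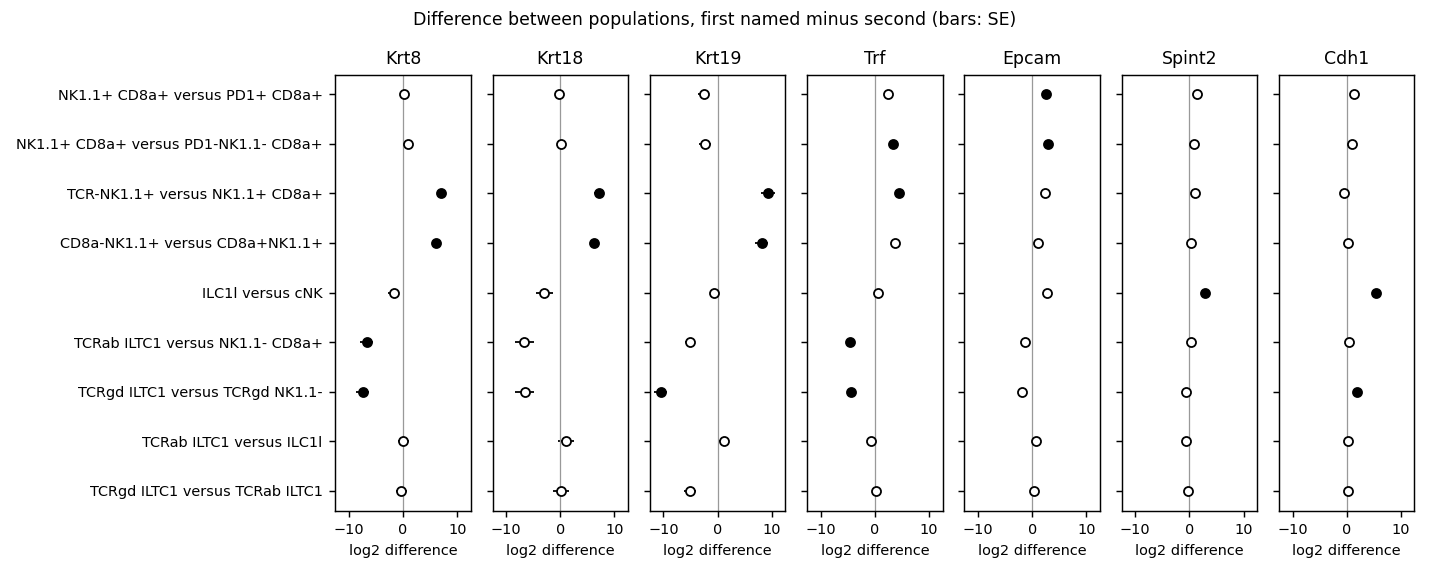
Fitted log2 difference (points; lines are SE) for 7 members in the 9 comparisons, the first named population minus the second; filled points have an edgeR adjusted p below 0.05. Krt19 and Trf lie far from 0 in the comparisons of keratin-rich with keratin-poor populations. Krt8 and Krt18 do so too, but these populations were named by their Krt8 and Krt18 levels. Cdh1 lies furthest from 0 in ILC1l against cNK (5.45).

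A wider list of 58 other epithelial genes, of which 53 were tested in the first set and 54 in the second, gave 10 genes higher and 0 lower in TCR-NK1.1+ against TCRb+CD8a+NK1.1+, among them the tight-junction claudin Cldn8 (31.1 ± 18.1 CPM, SD, n = 2) and the basement-membrane anchor protein gene Lad1 (8.42 ± 1.00), both at 0 in TCRb+CD8a+NK1.1+. TCRb+CD8a-NK1.1+ exceeded it in 4, led by the prolactin receptor Prlr (9.20 ± 1.34 on the log2 scale) and the transcription factor Sox9 (6.57 ± 1.12). Against TCRb+CD8a+PD1+, edgeR called 0 of the 53 for TCRb+CD8a+NK1.1+, with 5 at an unadjusted p below 0.05 and 2 called by DESeq2. Against TCRb+CD8a+PD1-NK1.1- it called 0, with 10 and 4. Over all genes, 1722 and 1543 of 15727 had an unadjusted edgeR p below 0.05 in these 2 comparisons. DESeq2 called 449 genes higher and 422 lower of 23454 in the first, and 406 and 384 in the second. ILC1l against cNK gave 1 of 54 each way, the plakophilin Pkp3 higher (1.42 ± 0.28) and xanthine dehydrogenase (Xdh), an enzyme of milk fat secretion, lower (-3.54 ± 0.39). TCRab+ILTC1 was lower than TCRb+CD8a+NK1.1- in 1, ceruloplasmin (Cp, -6.94 ± 1.21). TCRgd+ILTC1 was lower than TCRgd+NK1.1- in 5, among them the water channel Aqp5, at 0 in TCRgd+ILTC1, and Sox9 (-8.81 ± 1.74), and higher in 1, the galectin Lgals4 (3.16 ± 0.65). Between TCRab+ILTC1 and ILC1l edgeR called 0 of the 54, with 9 at an unadjusted p below 0.05 and 1 called by DESeq2, and between TCRgd+ILTC1 and TCRab+ILTC1 it called 0, with 5 and 0. The counts over all genes for these 2 comparisons are given above.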

How the data were processed

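The authors deposited whole counts per gene for 22 libraries of sorted tumour lymphocytes (2 per population). Cells were sorted into Tri-Reagent and cDNA was amplified with the SMARTer RACE kit, per the labels' protocols. The tools named are BWA 0.7.5a, Picard and HTSeq and the builds NCBIM37 and mm9, all from the submitters' processing notes; how features were counted and whether strand was used is not stated there. cDNA copies carry no molecular identifiers, so intervals and floors cover counting error only.

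Symbols were taken from a GRCm38 annotation (GENCODE vM21), which named 32897 of 37620 entries (99.02% of counts). Exon lengths came from it too, as all bases in any exon of any transcript of a gene. The members and gene lists were chosen with earlier results of these data known. Counts were fitted in R 4.3.3 with edgeR 4.0.16 (TMM, filterByExpr, quasi-likelihood F test), separately for the first set (5 populations, 10 libraries) and the second (6, 12), so that all populations of a set share 1 estimate of spread; BH-adjusted p below 0.05 is a call. A gene at 0 in a population has its fold computed against 3 counts over the group. Intervals of ratios are exact (Clopper-Pearson, 95%). Members named with full values are Krt8, Krt18, Krt19, Epcam, Cdh1, Trf, Csn2, Csn3, Wap and every member called in any comparison; the rest are given by range, and up to 2 called genes each way of the wider epithelial list. Muc1, Erbb3, Cd207, Flt3 and Itgax values were added after seeing the data. No 2 libraries of a population were the same. On simulated data for TCRb+CD8a+NK1.1+ against TCRb+CD8a+PD1+ (15034 genes), the test found 8, 52, 92 and 100% of genes given log2 changes of 1, 2, 4 and 6. For ILC1l against cNK (16087 genes) it found 2, 30, 88 and 88%. Only genes above a limit on mean counts were changed, and only upward. These shares therefore do not carry over to members at or near 0 in a population. Alternatives were DESeq2 1.42.0, no TMM, no filter on low counts, a replicate block, 1 fit over 22 libraries, each library left out, and, added after seeing the data, fits without TCRgd+NK1.1- or TCRb+CD8a-NK1.1+. Python 3.11.15 with pandas 2.3.3, scipy 1.17.1 and matplotlib 3.10.9 made tables and figures.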

Additional observations from a re-analysis of the deposited data

How the results depend on the processing

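No called member changed direction under any alternative, but how many members were called depended on the processing. Of 36 calls, 36 stayed with DESeq2, 36 without the filter on low counts, 31 without TMM, 29 with the replicate block, 27 in 1 fit over 22 libraries, and 20 of the 21 that could be compared without the TCRgd+NK1.1- or TCRb+CD8a-NK1.1+ population. The levels (mean member sum per population) moved by less than the spread between libraries without TMM.

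For TCRb+CD8a+NK1.1+ against TCRb+CD8a+PD1+ (1 member called), DESeq2 called 4, no filter 10, no TMM 0, 1 fit 0, the replicate block 2, the fit without the added population 3, and fits without 1 library 0 to 0. Against TCRb+CD8a+PD1-NK1.1- (2), no filter called 6, no TMM 1, 1 fit 1, and fits without 1 library 0 to 1. For TCR-NK1.1+ against TCRb+CD8a+NK1.1+ (11), DESeq2 called 22, no filter 27, 1 fit 6, the added fit 26, and fits without 1 library 0 to 7. For TCRb+CD8a-NK1.1+ against TCRb+CD8a+NK1.1+ (5), DESeq2 called 16, no filter 23, and fits without 1 library 0 to 24. For ILC1l against cNK (3), DESeq2 called 5, no filter 11, and fits without 1 library 1 to 1. For TCRab+ILTC1 against TCRb+CD8a+NK1.1- (4), DESeq2 called 20, no filter 21, 1 fit 9, and fits without 1 library 0 to 9. For TCRgd+ILTC1 against TCRgd+NK1.1- (10), DESeq2 called 22, no filter 23, 1 fit 17, and fits without 1 library 0 to 11. For TCRab+ILTC1 against ILC1l (0), no filter called 3. For TCRgd+ILTC1 against TCRab+ILTC1 (0), DESeq2 called 2, no filter 4, and fits without 1 library 0 to 1. The number of genes called over the whole table shifted too, also in fits without 1 library. In every comparison DESeq2 and the fit without the filter called more genes than the main fit. For TCR-NK1.1+ against TCRb+CD8a+NK1.1+ the main fit called 200 genes higher and 42 lower of 15727. DESeq2 called 902 and 243 of 23454, no filter 1198 and 254 of 23454, 1 fit 56 and 16 of 17860, and the added fit 818 and 102 of 15191. The cause of these shifts was not tested. A lone remaining library is assumed to vary like the other populations.

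The labels do not say that replicate numbers mark a shared batch, and only 2 numbers exist, so libraries were not treated as paired. Deviations of same-numbered libraries correlated at 0.027 to 0.474 over 8902 genes, and the replicate block gave 2, 2, 12, 6, 2, 3, 8, 0 and 0 members called in the order above. The 7 calls absent under the block were Cldn4 in ILC1l against cNK, Krt8 and Elf3 in TCRab+ILTC1, and Cldn7, Csn3, Elf3 and Esrp1 in TCRgd+ILTC1. With 2 libraries per population the calls rest on few degrees of freedom, and members near 3 counts in a library are not resolved.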
